A study of Mus musculus with 6 samples.

Results

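The Wnt and beta-catenin pathway was followed through 10 genes in RNA-seq libraries of mouse blastocysts, from the enzyme that prepares Wnt ligands to the factors that read beta-catenin on DNA. The genes were Porcn, Wls, Lrp6, Axin1, Axin2, Apc, Gsk3b, Ctnnb1, Tcf7l1 and Lef1, chosen by name, and all 10 had a row among the 49993 genes of the count table. The in vivo group (3 libraries) held blastocysts that developed in the mother and were flushed from the uterus on day 3.5, and the in vitro group (3 libraries) held blastocysts grown from zygotes in KSOM, a potassium-enriched culture medium. Mothers of both groups were superovulated with 2 gonadotrophins and mated naturally, so embryos of the control group also came from stimulated females. The sample descriptions name the inner cell mass of 1 embryo per library and a field for cell type says embryonic stem cell, whereas the design text speaks of RNA from whole blastocysts. The series asked which genes go with telomere shortening in culture. The labels name neither the strain nor the age of the cultured embryos at freezing, and no label says that libraries of a group came from separate litters, which limits each p-value to the spread among these libraries.

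Wnt proteins are lipid-modified signals that bind Frizzled receptors together with the co-receptors LRP5 and LRP6. Without them, a destruction complex built on the scaffolds AXIN and APC lets the kinase GSK3 mark beta-catenin for breakdown, and with them beta-catenin accumulates and joins TCF/LEF factors at target genes. In mouse embryonic stem cells TCF7L1 acts mainly as a repressor of pluripotency genes, and inhibition of GSK3 helps to keep those cells naive. Beta-catenin also has a structural role, tying E-cadherin to alpha-catenin at adherens junctions.

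Library totals were 6918288 to 17643429 counts. Ribosomal RNA genes took 18.4%, 24.4% and 47.8% of them in vivo, compared with 38.6%, 37.8% and 42.1% in vitro. Genes with a count numbered 20867, 20316 and 16977 in vivo, compared with 16996, 20291 and 18325 in vitro. The part of these library differences in the values below was not tested. Values are given as CPM, a read count scaled to a common library total after normalization by trimmed mean of M values (TMM). In vivo replicate 3 stood apart from its group, with Spearman correlations of log2 CPM across genes of 0.786 and 0.793 to the other in vivo libraries, which correlated with each other at 0.942. The in vitro libraries were also spread, with correlations of 0.848 (replicates 1 and 2), 0.789 (1 and 3) and 0.824 (2 and 3). In vivo replicate 3 held 1325 counts (94.9 CPM) of Mos, an oocyte kinase transcript found at 0 to 1.02 CPM in the other 5 libraries. Mos made up nearly all of the 99.4 CPM summed over 10 oocyte markers in that library, where Zp3 was at 4.51 CPM, Zp2 at 0.0716 CPM and the other 7 (Zp1, Gdf9, Bmp15, Oosp1, Nlrp5, Zar1 and Npm2) at 0. The list summed to 0.175 to 8.19 CPM in the other libraries. All 6 libraries expressed markers of the 3 blastocyst lineages, trophectoderm included. No reference level for isolated inner cell mass was compared, so how far that label describes the RNA was not tested. The summed level of 16 trophectoderm markers was 830 to 1726 CPM in vivo, compared with 1600.5 to 2690 CPM in vitro (CPM summed over the list), that of 14 primitive endoderm markers 553 to 1046 and 943 to 1722 CPM, and that of 14 epiblast and inner cell mass markers 1956 to 2315 and 1512 to 2295 CPM. No marker of these 3 lists was at 0 in all libraries. Although the sums overlapped between groups, 7 of 14 primitive endoderm markers were higher in each in vitro library than in any in vivo library and 0 were lower. Over all genes tested, 9.27% were higher and 10.0% lower without overlap. Of the 14 markers DESeq2 called 4, against 2.59% of the genes edgeR tested, and edgeR called none. The 4 were Sox7 (DESeq2 adjusted p = 4.69e-07), Foxa2 (2.75e-06), Lama1 (0.00148) and Fgfr2 (0.0475). Sox7 had 0, 0 and 1 counts in vivo, compared with 112, 425 and 32 in vitro. Foxa2 had 0, 0 and 0 counts in vivo, compared with 196, 54 and 22 in vitro. Both passed the filter on low counts through the in vitro group alone, and both are among the 7 without overlap. Lama1, a basement membrane laminin, was at 15.4, 4.47 and 23.9 CPM in vivo, compared with 221, 119 and 50.9 CPM in vitro. Of 15 trophectoderm markers tested 4 were higher in each in vitro library (Gata3, Gata2, Id2 and Slc2a3) and 0 lower, and DESeq2 called Id2 (adjusted p = 0.00539). Of 13 epiblast and inner cell mass markers tested 1 was higher in each in vitro library (Sox2, DESeq2 adjusted p = 0.202) and 1 lower (Dppa5a, 0.556). The part of these lineage markers and of Mos in the differences between groups described here was not tested, and in bulk libraries fewer cells of a type and less RNA per cell cannot be told apart. Of 10 cumulus and granulosa markers 7 had 0 counts in every library, among them Amh, Cyp19a1 and Fshr, and the list summed to at most 1.69 CPM. Blood markers summed to 0.874 to 5.37 CPM with 6 of 10 at 0, and uterine markers to 16.8 to 44.9 CPM in vivo, compared with 8.39 to 48.5 CPM in vitro with Ltf, Pgr and Lcn2 at 0.

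Of the 10 genes, 9 had counts and passed the filter on low counts. No gene of the 9 passed edgeR's quasi-likelihood test between the groups with Benjamini-Hochberg adjustment over 14301 genes, a test that called 0% of all genes tested at an adjusted p below 0.05. DESeq2 also called 0 of the 9 (2.59% of the genes edgeR tested, 2.81% of all genes with a DESeq2 adjusted p), while limma-voom, weighting libraries by quality, called 0 of the 9 (0.713% of all). At an unadjusted p below 0.05, edgeR gave 1 of the 9, Tcf7l1, against 10.2% of all genes tested. Tcf7l1 was also the single gene of the 9 whose groups did not overlap, against 19.3% of all genes tested.

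**Figure D1:**
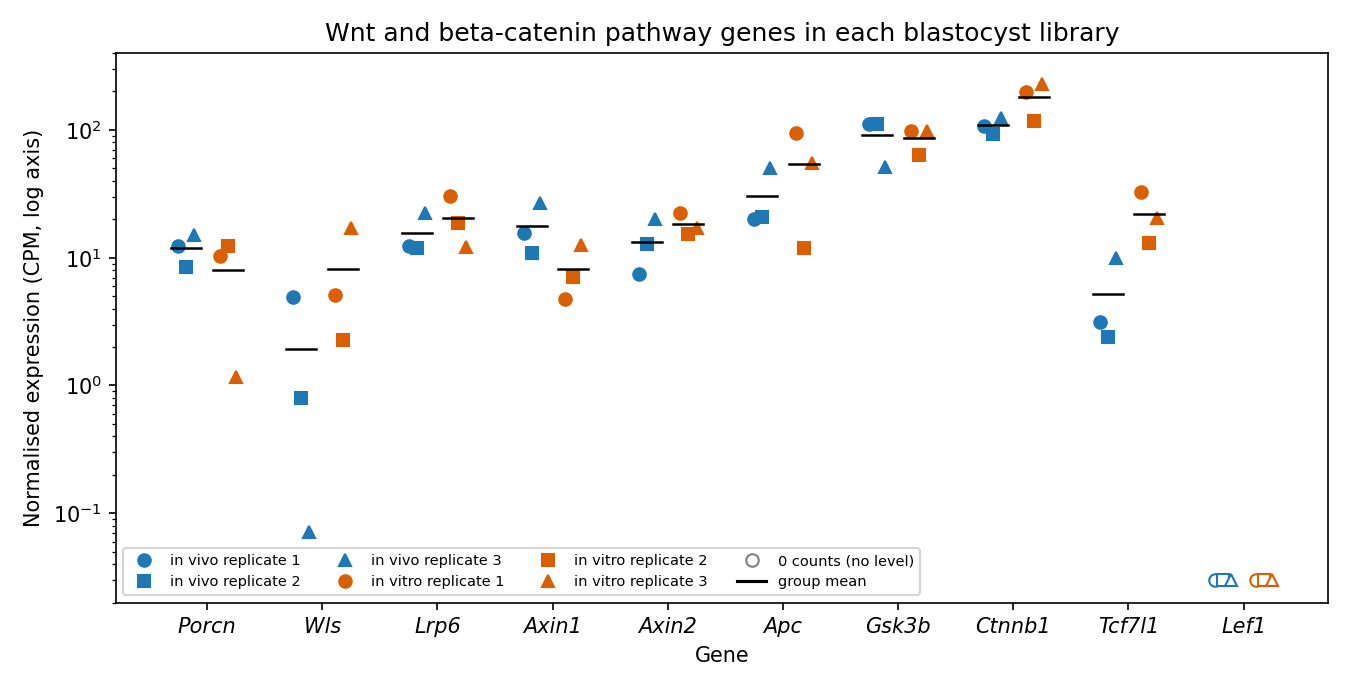
Normalised expression (CPM, logarithmic axis) of the 10 genes in each library, with in vivo replicates in blue, in vitro replicates in orange and group means as black bars. Tcf7l1 is higher in each in vitro library (12.95 to 32.5 CPM) than in any in vivo library (2.39 to 9.95 CPM), the other detected genes overlap between groups, and Lef1 has 0 counts in all 6 libraries.

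Per kilobase of gene length, a scale on which different genes can be compared, Ctnnb1 was the most abundant of the 10 transcripts. Its mean level over the 6 libraries was 40.2 CPM per kilobase (29.99 ± 4.35 in vivo and 50.3 ± 16.1 in vitro, SD, n = 3 each), with a range of 25.8 to 63.5 that did not overlap the range of the next gene, Gsk3b (mean 10.4, range 5.997 to 13.2 CPM per kilobase). The order of the other genes differed between the groups. In vivo, Gsk3b was followed by Axin1 with a mean of 4.28 CPM per kilobase, Porcn with 4.10, Axin2 with 2.44, Apc with 2.26, Lrp6 with 1.66, Tcf7l1 with 1.48 and Wls with 0.334. In vitro, Tcf7l1 came next to Gsk3b with a mean of 6.30 CPM per kilobase, followed by Apc with 3.96, Axin2 with 3.35, Porcn with 2.74, Lrp6 with 2.18, Axin1 with 1.96 and Wls with 1.41. From Gsk3b down, the ranges of neighbours in either order overlapped, but overlap of ranges ignores that the genes share libraries. Within each in vivo library Porcn lay above Axin2, Apc above Lrp6 and Tcf7l1 above Wls. Within each in vitro library Gsk3b lay above Tcf7l1, Tcf7l1 above Apc and Axin1 above Wls. The other neighbours changed order between libraries of a group. Differences between neighbours were not tested.

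Porcn encodes the acyltransferase that attaches the lipid to Wnt ligands, and Wls the carrier that brings lipid-modified Wnts to the cell surface. Porcn (chromosome X, 8193846 to 8206548, GRCm38, minus strand) was at 12.3, 8.46 and 15.03 CPM in vivo, compared with 10.3, 12.4 and 1.17 CPM in vitro. The low value was that of in vitro replicate 3, from 9 counts, and the other 2 in vitro libraries lay within the in vivo range. Porcn had a log2 fold change (in vitro over in vivo) of −0.58 ± 0.84 (SE), with a 95% interval of −2.47 to 1.31 (edgeR adjusted p = 0.861), and with in vitro replicate 3 left out it was −0.068. Wls (chromosome 3, 159839650 to 159938666, plus strand) ranged more widely than any other of the 9 genes within the in vivo group, at 4.92, 0.798 and 0.0716 CPM, from 63, 10 and 1 counts. In vitro it was at 5.07, 2.27 and 17.2 CPM, so the groups overlapped and the highest value was again that of in vitro replicate 3. Its log2 fold change was 2.08 ± 1.40 (SE, 95% interval −1.08 to 5.23, edgeR adjusted p = 0.653), and it moved to 4.17 with in vivo replicate 1 left out and to 0.92 with in vitro replicate 3 left out. In vitro replicate 3 was thus the library of lowest Porcn and highest Wls.

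Few of the Wnt ligand genes passed the filter on low counts. Of 19 Wnt genes 7 had 0 counts in all 6 libraries (Wnt1, Wnt4, Wnt5a, Wnt7a, Wnt8b, Wnt9b and Wnt16) and 3 were abundant enough to be tested. Per gene length, Wnt7b had the highest mean over the 6 libraries (7.44 CPM per kilobase) and Wnt6 the next (6.30), with Wnt6 above Wnt7b in in vivo replicate 3 and in vitro replicate 1. Wnt7b was at 34.0, 16.0 and 10.8 CPM in vivo, compared with 20.3, 67.2 and 48.8 CPM in vitro, with a log2 fold change of 1.16 ± 0.58 (SE, edgeR adjusted p = 0.539). Wnt6 was at 15.9, 2.71 and 7.45 CPM in vivo, compared with 27.8, 12.8 and 19.1 CPM in vitro (log2 fold change 1.19 ± 0.71, SE). Wnt3a, a ligand of the beta-catenin branch, had 105, 34 and 0 counts in vivo, compared with 37, 118 and 9 counts in vitro. For each of the 3 ligands the ranges of the groups overlapped. Of 9 genes of Wnt secretion and release 8 were tested, 3 with a positive and 5 with a negative log2 fold change (median −0.28), and none reached an unadjusted p below 0.05. Tmed10, a cargo receptor of the secretory pathway, was lower in each in vitro library (30.6 to 79.5 CPM) than in any in vivo library (99.6 to 122 CPM), with an edgeR adjusted p of 0.497, and Vps35, a retromer subunit of the route that recycles WLS, was higher in each (120 to 229 against 80.6 to 99.6 CPM, edgeR adjusted p = 0.500).

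Lrp6, the co-receptor whose phosphorylated tail recruits AXIN, is encoded on chromosome 6 from 134446476 to 134566913 (minus strand). It was at 12.4, 11.8 and 22.5 CPM in vivo, compared with 30.4, 18.7 and 12.2 CPM in vitro, with overlapping groups. The log2 fold change was 0.39 ± 0.54 (SE, 95% interval −0.83 to 1.61, edgeR adjusted p = 0.855), and with in vitro replicate 1 left out, the library of highest Lrp6, it was −0.0038. Its paralog Lrp5 was at 0.651 to 9.02 CPM over the 6 libraries. Per gene length, Lrp6 made up 80.8%, 66.7% and 58.0% of the summed Lrp5 and Lrp6 level in vivo and 73.9%, 82.5% and 91.2% in vitro. Lrp6 was therefore the more abundant of the 2 co-receptors in each library. Among 21 receptors and co-receptors 9 were tested, 6 with a positive and 3 with a negative log2 fold change (median 0.39, against −0.0058 over all genes tested). Ryk, an atypical receptor tyrosine kinase for Wnts, was the only one of them with an unadjusted p below 0.05 (5.11% of all genes tested had one and were higher in vitro), at 25.1, 24.7 and 34.7 CPM in vivo, compared with 72.9, 73.2 and 41.1 CPM in vitro, with a log2 fold change of 1.15 ± 0.38 (SE, edgeR adjusted p = 0.398). Fzd5 was the most abundant Frizzled transcript per gene length in each library, at 20.5, 24.7 and 52.3 CPM in vivo, compared with 70.3, 22.7 and 45.9 CPM in vitro.

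The 2 AXIN scaffolds of the destruction complex had log2 fold changes of opposite sign, and neither passed the test. Axin1 (chromosome 17, 26131217 to 26195811, plus strand), the scaffold that assembles the complex, was at 15.7, 10.9 and 26.8 CPM in vivo, compared with 4.72, 7.10 and 12.6 CPM in vitro. The 2 lowest values were in vitro, and in vitro replicate 3 lay above in vivo replicate 2, so the groups overlapped. On the log2 scale the change of Axin1 was −1.12 ± 0.63 (SE, 95% interval −2.55 to 0.30, edgeR adjusted p = 0.587), and −0.70 without in vivo replicate 3. Axin2 (chromosome 11, 108917828 to 108950783, plus strand) encodes the second scaffold and is at the same time a widely used transcriptional readout of the pathway. It was at 7.42, 12.7 and 20.0 CPM in vivo, compared with 22.4, 15.4 and 17.2 CPM in vitro. The 2 lowest values were in vivo, whereas in vivo replicate 3 lay within the in vitro range. The log2 fold change of Axin2 was 0.45 ± 0.55 (SE, 95% interval −0.78 to 1.68, edgeR adjusted p = 0.822), and it was 0.15 with in vivo replicate 1 left out and 0.87 with in vivo replicate 3 left out.

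Set against each other within a library, which no scaling of library totals can change, Axin1 made up a larger share of the 2 scaffolds in vivo. Per gene length, Axin1 was 73.6%, 53.0% and 63.8% of the summed Axin1 and Axin2 level in vivo and 21.7%, 37.7% and 49.2% in vitro, with means of 63.5% ± 10.3 and 36.2% ± 13.8 (SD, n = 3 each). The groups did not overlap. An exact two-sided permutation test over the 6 libraries gave p = 0.1, the smallest value that 3 against 3 allows, for a share chosen after its values were seen. The shares of 4 other paralog families gave p = 0.2 to 0.9 in the same exact permutation test, and after adjustment over the 5 shares the 5 values are 0.5 to 0.9.

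Apc, the second large scaffold, lies on chromosome 18 at 34220297 to 34322190 on the plus strand. It was at 20.2, 20.9 and 50.7 CPM in vivo, compared with 94.1, 11.9 and 55.1 CPM in vitro. In vitro replicate 1 held the highest and in vitro replicate 2 the lowest of the 6 values. For Apc the log2 fold change was 0.81 ± 0.69 (SE, 95% interval −0.76 to 2.37, edgeR adjusted p = 0.741), and it was 0.13 with in vitro replicate 1 left out and 1.38 with in vivo replicate 3 left out. Its paralog Apc2 had 0 counts in all 6 libraries, which allows up to 0.0452 CPM over the 6 libraries together (3 counts, counting error only).

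Gsk3b, the kinase that phosphorylates beta-catenin for breakdown, lies on chromosome 16 at 38089001 to 38246084 on the plus strand and had the log2 fold change closest to 0. It was at 111, 112 and 51.1 CPM in vivo, compared with 98.6, 63.4 and 98.0 CPM in vitro, so the in vitro values lay within the in vivo range. Its fold change on the log2 scale was −0.077 ± 0.39 (SE), and its 95% interval of −0.96 to 0.81 leaves room for changes of either sign (edgeR adjusted p = 0.966). Leaving out 1 library turned the sign in 3 cases, to 0.064 for in vivo replicate 1, 0.086 for in vivo replicate 2 and 0.089 for in vitro replicate 2. Its paralog Gsk3a was at 7.26, 7.74 and 19.4 CPM in vivo, compared with 29.03, 18.4 and 27.1 CPM in vitro (log2 fold change 1.11 ± 0.56, SE, edgeR adjusted p = 0.539). Per gene length, Gsk3b was 80.2% and 79.3% of the summed Gsk3a and Gsk3b level in in vivo replicates 1 and 2, but 41.1% in in vivo replicate 3 and 47.4%, 47.8% and 49.0% in vitro. For this share, in vivo replicate 3 lay beside the cultured libraries, outside the range of its own group's other 2 libraries.

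**Figure D2:**
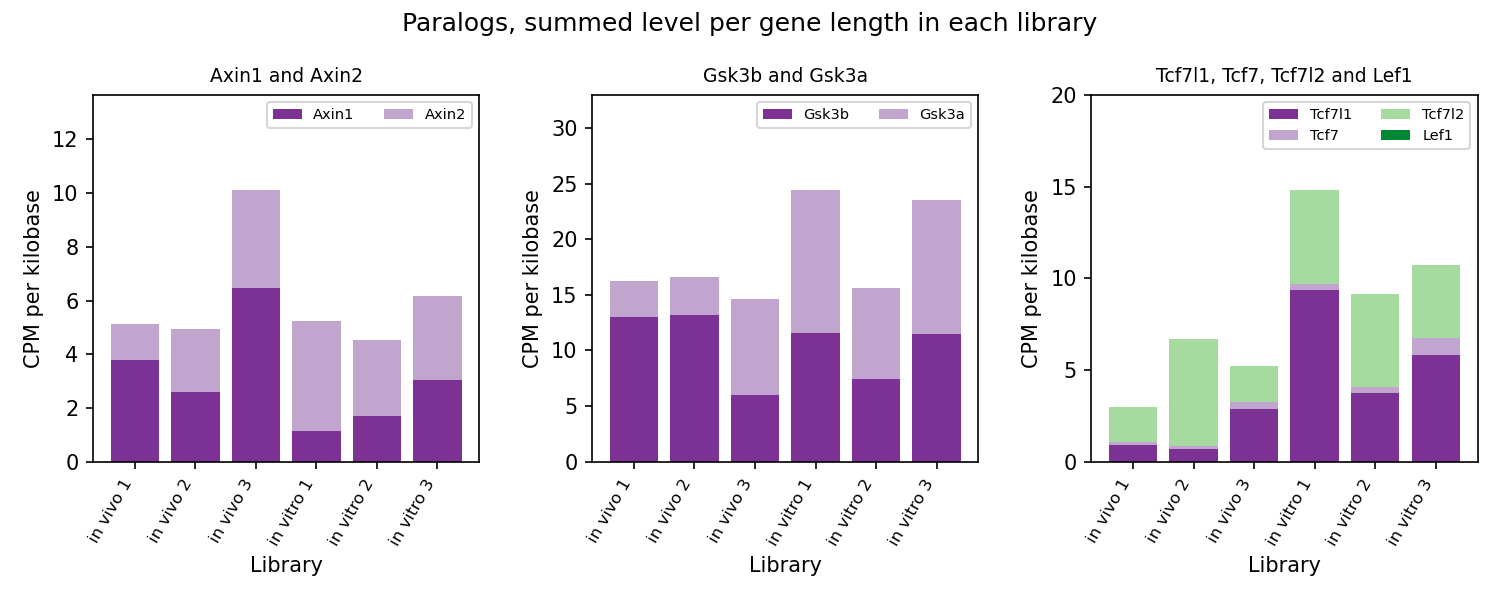
Level per gene length (CPM per kilobase, bars from 0) of Axin, Gsk3 and TCF/LEF paralogs stacked in each library. The Axin1 part is larger in each in vivo library (53.0% to 73.6%) than in any in vitro library (21.7% to 49.2%), and Lef1 adds nothing in any library.

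Of 16 genes of the destruction complex 15 were tested, 8 with a positive and 7 with a negative log2 fold change (median 0.19). The 2 F-box proteins that recognise marked beta-catenin had log2 fold changes of opposite sign, a difference that was not tested. Btrc was at 83.3, 115 and 141 CPM in vivo, compared with 50.4, 86.5 and 28.1 CPM in vitro (log2 fold change −1.04 ± 0.45, SE, edgeR adjusted p = 0.474), and was the only gene of the list with an unadjusted p below 0.05 (5.08% of all genes tested had one and were lower in vitro). Fbxw11 was at 30.2, 52.3 and 35.7 CPM in vivo, compared with 91.1, 52.9 and 67.7 CPM in vitro (log2 fold change 0.84 ± 0.38, SE, edgeR adjusted p = 0.495). Tnks2, a tankyrase that marks AXIN for breakdown, was at 55.4, 38.1 and 95.1 CPM in vivo, compared with 227, 71.0 and 112 CPM in vitro, with overlapping groups. Among 9 genes of the cytoplasmic relay between receptor and destruction complex 5 were tested, and Frat1, which encodes a GSK3-binding protein, had the smallest p of all pathway genes listed. Frat1 was at 12.96, 19.2 and 11.2 CPM in vivo, compared with 1.05, 3.15 and 0.651 CPM in vitro, from 166, 241 and 157 counts against 6, 43 and 5. Each in vitro value lay below each in vivo value. Frat1 had a log2 fold change of −3.13 ± 0.84 (SE), not called by edgeR (adjusted p = 0.334) and called lower in vitro by DESeq2 (adjusted p = 0.00529). Leaving out in vivo replicate 1 or 2 ended the DESeq2 call (adjusted p = 0.0534 and 0.162), and with any other library left out the DESeq2 adjusted p was 0.000143 to 0.038. Its paralog Frat2 had the opposite sign (log2 fold change 1.97 ± 1.11, SE, edgeR adjusted p = 0.587).

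Ctnnb1 encodes beta-catenin itself and lies on chromosome 9 at 120933400 to 120960507 on the plus strand. It was at 108, 93.4 and 125 CPM in vivo, compared with 200, 118 and 230 CPM in vitro. Of the in vitro libraries, replicates 1 and 3 lay above every in vivo library and replicate 2 lay below in vivo replicate 3. For Ctnnb1 the log2 fold change was 0.75 ± 0.34 (SE, 95% interval −0.02 to 1.52) and did not pass (edgeR adjusted p = 0.501, unadjusted p = 0.0554), and it was 0.41 with scaling by library totals alone, which moved the median of all genes by −0.32. Among the 6 genes of beta-catenin and its cadherin partners, all tested, each had a positive log2 fold change (median 0.67). Ctnna1, alpha-catenin, the link to the actin cytoskeleton, was at 128, 102 and 73.3 CPM in vivo, compared with 210, 177 and 302 CPM in vitro, with a log2 fold change of 1.18 ± 0.35 (SE, edgeR adjusted p = 0.362) with no overlap between groups. Cdh1, E-cadherin, was at 134, 111 and 162 CPM in vivo, compared with 415, 268 and 111 CPM in vitro, so in vitro replicate 3 stayed within the in vivo range. Jup, plakoglobin, the paralog of beta-catenin, had a log2 fold change of 0.59 ± 0.41 (SE), and Ctnnb1 kept 73.4% to 88.1% of the summed Ctnnb1 and Jup level per gene length across the 6 libraries.

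**Figure D3:**
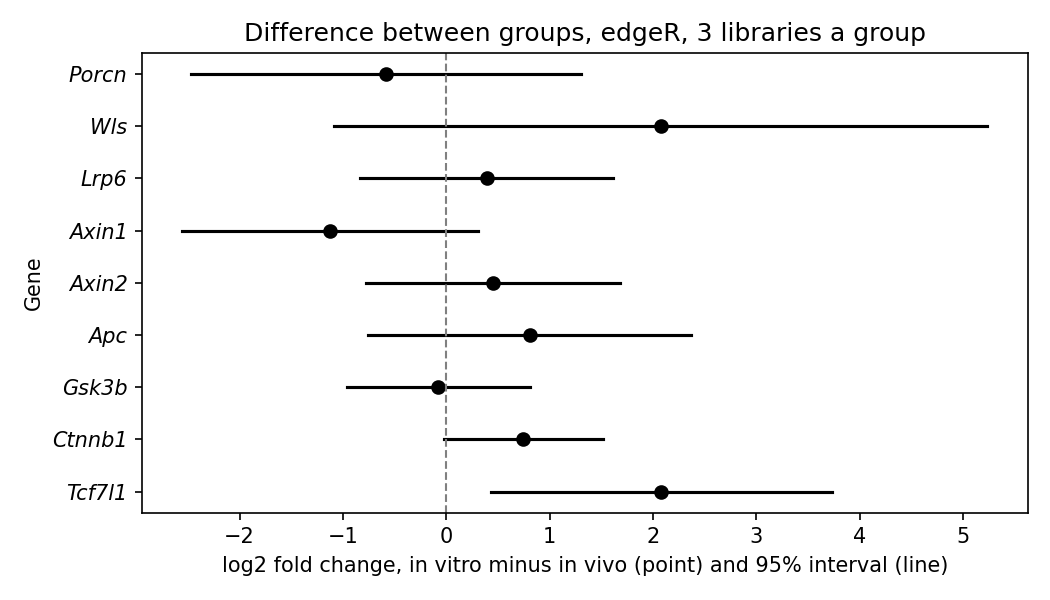
log2 fold change between groups (in vitro over in vivo, points) with 95% intervals (lines) for the 9 genes with counts, from edgeR on 3 libraries a group. The interval of Tcf7l1 (0.44 to 3.73) lies above 0 before adjustment for multiple tests, and the other 8 intervals include 0.

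Tcf7l1 had the smallest p of the 9 genes, and with Wls the largest log2 fold change (2.08 for both). It encodes the TCF factor that represses pluripotency genes in embryonic stem cells and is encoded on chromosome 6 from 72626371 to 72789045 (minus strand). It was at 3.12, 2.39 and 9.95 CPM in vivo, from 40, 30 and 139 counts, and at 32.5, 12.95 and 20.3 CPM in vitro, from 186, 177 and 156 counts. The group means were 5.16 ± 4.17 and 21.9 ± 9.89 CPM (SD, n = 3 each), and the highest in vivo value, that of replicate 3, lay below the lowest in vitro value. The log2 fold change was 2.08 ± 0.73 (SE, 95% interval 0.44 to 3.73), which passed neither edgeR (adjusted p = 0.415, unadjusted p = 0.0187) nor DESeq2 (adjusted p = 0.0870), and not limma-voom either (adjusted p = 0.0684). Without in vivo replicate 3 the log2 fold change was 2.99 by edgeR (adjusted p = 0.162) and 3.00 by DESeq2, which then called it (adjusted p = 0.000395). The lowest edgeR value, 1.69, came from leaving out in vitro replicate 1.

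Tcf7l1 was not the only TCF transcript, and the family's makeup differed between libraries. Tcf7l2 was at 12.4, 37.9 and 12.5 CPM in vivo, compared with 33.2, 33.0 and 25.8 CPM in vitro, and Tcf7 at 1.80, 1.92 and 4.44 CPM in vivo, compared with 3.85, 3.80 and 9.89 CPM in vitro, both with overlapping groups. Lef1 (chromosome 3, 131110297 to 131224357, plus strand) had 0 counts in each of the 6 libraries, which allows at most 0.215 to 0.525 CPM in a single library and 0.0452 CPM over all 6 (3 counts, counting error only). No fold change can be given for it. Per gene length, Tcf7l1 made up 30.2%, 10.3% and 55.1% of the summed level of the 4 genes in vivo and 63.1%, 40.7% and 54.5% in vitro. In vivo replicates 1 and 2 were the lowest, and in vivo replicate 3 lay within the in vitro range.

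The sequence upstream of Tcf7l1 is shown because it was the member whose groups did not overlap, and that before an Axin2 transcript start because Axin2 is the pathway's usual readout. Both are the 250 bases before an annotated transcript start, from RefSeq on GRCm38.p6, with capitals on the GC box GGGCGG, and read in the direction of transcription. For Axin2 that start lies within the gene's span given above, so its window is not upstream of the whole gene.
Tcf7l1 (chr6:72789046-72789295, minus strand): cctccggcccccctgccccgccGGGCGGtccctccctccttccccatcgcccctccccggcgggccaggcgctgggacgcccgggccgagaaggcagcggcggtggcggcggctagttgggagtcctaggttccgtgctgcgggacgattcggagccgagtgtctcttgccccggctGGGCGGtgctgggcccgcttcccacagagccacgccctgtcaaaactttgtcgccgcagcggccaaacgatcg
Axin2 (chr11:108920099-108920348, plus strand): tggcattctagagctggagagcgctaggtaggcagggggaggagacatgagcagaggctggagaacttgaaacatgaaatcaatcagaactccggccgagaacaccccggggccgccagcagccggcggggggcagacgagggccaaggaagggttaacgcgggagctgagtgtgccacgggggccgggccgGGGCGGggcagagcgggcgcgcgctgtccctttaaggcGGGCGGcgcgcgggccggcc
Each holds 2 GC boxes in this direction, and G and C make up 73.6% of the Tcf7l1 window and 69.2% of the Axin2 window. The windows of 6 of the 10 genes were found, 10 windows in all, and 8 of the 10 hold GGGCGG on either strand (Axin2, Ctnnb1, Lef1, Tcf7l1 and Wls), against 32.7% of 32851 windows of the same length. The TCF/LEF words CTTTGAT and CTTTGTT, searched on both strands, are in 3.21% and 5.03% of all windows and in none of the 10. A match or its absence in so short a window is a description of letters only.

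Of the 18 TCF/LEF factors, coactivators and corepressors, 15 were tested, 14 with a positive and 1 with a negative log2 fold change (median 0.55, against −0.0058 over all genes tested). No gene of the list passed edgeR's adjusted test, 4 had an unadjusted p below 0.05, all higher in vitro (5.11% of all genes tested), and 5 had groups that did not overlap, all higher in vitro (9.27% of all). Tcf7l1 was among both counts. Tle3 and Tle4 encode Groucho corepressors that bind TCF factors in the absence of beta-catenin. Tle3 was at 8.98, 13.8 and 12.2 CPM in vivo, compared with 59.98, 38.5 and 18.9 CPM in vitro (log2 fold change 1.74 ± 0.52, SE, edgeR adjusted p = 0.362). Tle4 was at 36.1, 42.1 and 54.3 CPM in vivo, compared with 91.5, 108 and 78.9 CPM in vitro (log2 fold change 1.07 ± 0.33, SE, edgeR adjusted p = 0.374). Pygo2, a coactivator that beta-catenin recruits through BCL9, was at 16.3, 10.1 and 10.45 CPM in vivo, compared with 42.1, 26.6 and 32.2 CPM in vitro (log2 fold change 1.45 ± 0.45, SE, edgeR adjusted p = 0.381). The other corepressor genes tested, Tle1, Tle5, Ctbp1, Ctbp2 and Hdac1, overlapped between groups, with log2 fold changes from −0.59 (Ctbp1) to 0.67 (Ctbp2).

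Of 20 genes listed as usual targets 13 were tested, 9 with a positive and 4 with a negative log2 fold change (median 0.45), and 4 had 0 counts in all libraries, among them Sp5 and Nkd1. No target passed the adjusted edgeR test, and 3 had an unadjusted p below 0.05, all higher in vitro (Dkk1, Apcdd1 and Nr5a2), against 5.11% of all genes tested. Dkk1, a secreted antagonist that binds LRP6 and is itself induced by the pathway, was at 14.0, 0.639 and 8.52 CPM in vivo, compared with 94.8, 38.9 and 31.5 CPM in vitro, with each in vitro value above each in vivo value. Its log2 fold change was 2.83 ± 0.91 (SE, edgeR adjusted p = 0.396), and DESeq2 called it higher in vitro (adjusted p = 0.0469). Leaving out in vivo replicate 2 ended that call (DESeq2 adjusted p = 0.0712), as did leaving out any of in vitro replicates 1, 2 and 3 (0.315, 0.0564 and 0.0558). It held with in vivo replicate 1 (0.0177) or 3 (0.0468) left out. Apcdd1, an inhibitor of the pathway at the membrane, was at 0.859, 2.63 and 0.215 CPM in vivo, compared with 19.4, 6.44 and 4.30 CPM in vitro (log2 fold change 3.01 ± 1.15, SE, edgeR adjusted p = 0.436). Nr5a2, a nuclear receptor of the pluripotency network that TCF7L1 represses in embryonic stem cells, was at 21.2, 25.9 and 27.4 CPM in vivo, compared with 30.4, 41.5 and 84.7 CPM in vitro (log2 fold change 1.07 ± 0.45, SE, edgeR adjusted p = 0.474). Dkk1 has the word CTTTGTT 98 bases before its start, in capitals in the 30 bases around it on the minus strand of chromosome 19.
Dkk1 (chr19:30549576-30549605): tcccatcccggCTTTGTTgtcttccctgag

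**Figure D4:**
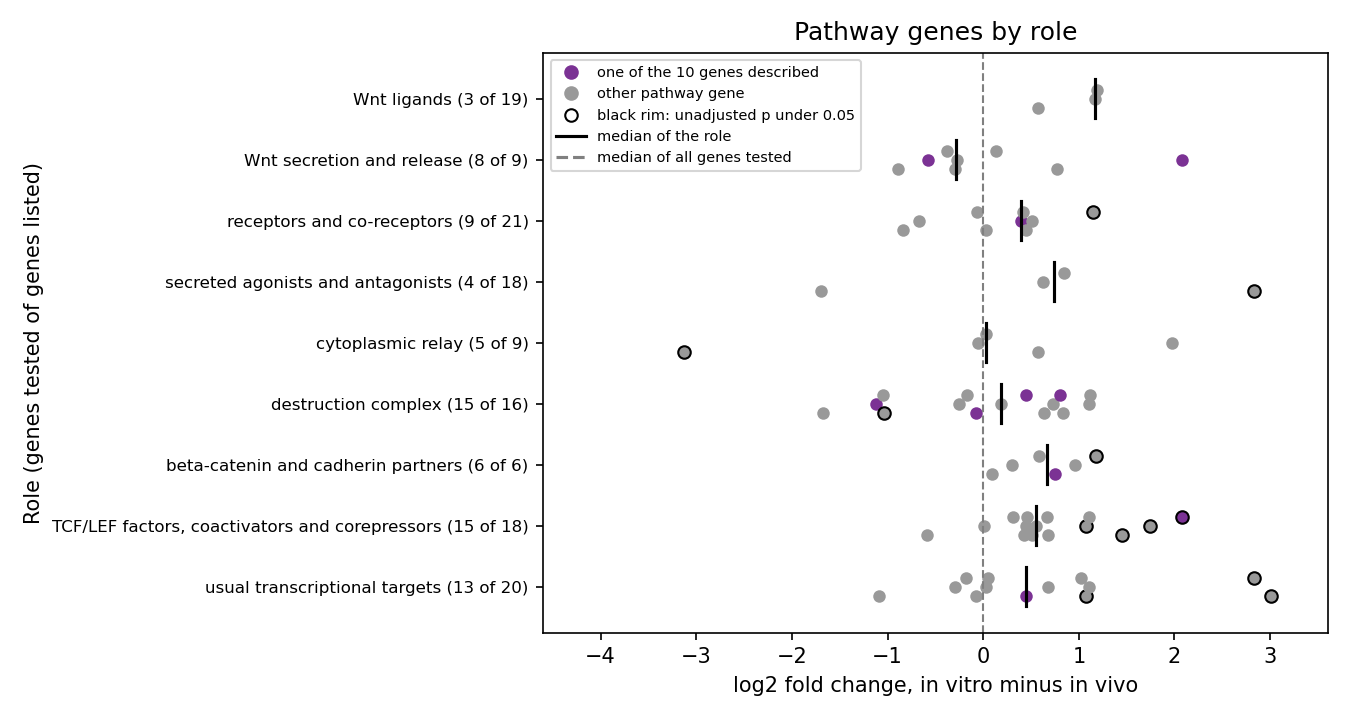
log2 fold change (in vitro over in vivo) of each tested pathway gene, arranged by role, with the 10 genes described in purple, other pathway genes in grey, a black rim at an unadjusted p below 0.05, role medians as bars and the median of all genes as a dashed line. Ligands, cadherin partners and TCF/LEF factors sit mostly to the right of 0. Their medians are 1.16, 0.67 and 0.55, over 3, 6 and 15 genes tested, and no ligand has a black rim. The destruction complex is spread on both sides (median 0.19, 15 genes tested).

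Over the 127 pathway genes listed, members included, 74 were tested, 51 with a positive and 23 with a negative log2 fold change (median 0.45). None passed edgeR's adjusted test. DESeq2 called 2 of the 74, Frat1 lower and Dkk1 higher, against 2.59% of all genes edgeR tested. By limma-voom 0 were called, against 0.713% of all. An unadjusted edgeR p below 0.05 was found for 11, 9 higher and 2 lower in vitro, against 5.11% higher and 5.08% lower over all genes tested. The groups did not overlap for 13 genes higher and 2 lower in vitro, against 9.27% and 10.0% of all genes tested. The 2 lower genes were Frat1 and Tmed10.

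The genes most like a member over the 6 libraries were those with the smallest root mean square difference in centred log2 CPM among 6851 genes of at least 10 CPM. For Ctnnb1 these were Tmpo (0.0902), Cox7a2 (0.104) and Csnk1a1 (0.108), the last encoding the casein kinase that primes beta-catenin for GSK3. For Axin2 they were Vti1a (0.116), Rpl17-ps9 (0.124) and Zfp384 (0.131). Lef1, with no counts, had no such measure. All points share the same 6 libraries.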

How the data were processed

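RNA was taken from frozen blastocyst material with a microscale kit, and libraries were made with a transposase-based kit that leaves strand unmarked, as the labels' protocols describe. The authors deposited raw counts per gene, 1 column per library, with a gene length column. No label or header names a counter or aligner. FastQC 0.11.2, DESeq2 and the build GRCm39 appear in the submitters' processing notes. The positions of the 10 members in the deposited table equal RefSeq's on GRCm38.p6 for 10 of 10, so GRCm38 is used. Members overlap exons of other genes by at most 260 bases, and those genes had 0 to 44 counts per library.

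The deposited counts were compared between groups in R 4.3.3 by edgeR 4.0.16: low-count filter by group (14301 genes kept), TMM scaling, robust dispersions (common biological coefficient of variation 0.727) and the two-sided quasi-likelihood test (legacy form). P-values were adjusted over these genes by Benjamini-Hochberg, with calls below 0.05. Standard errors came from the F statistic. DESeq2 1.42.0 and limma 3.58.1 were run beside it. The edgeR, DESeq2 and limma-voom tests were first tried on simulated data, and the exact permutation test was not. No 2 libraries were copies (chi-square per degree of freedom 31.5 for the closest pair). One listed symbol, Aes, was matched as Tle5 through a RefSeq synonym. Named were the 10 members, their paralogs, up to 3 genes of smallest p per pathway list, and the 3 genes most like Ctnnb1 and Axin2. The members and lists were chosen with earlier results of these data known. Paralog shares and genes named for not overlapping were chosen after their values were seen. Alternatives were other scalings, filters and tools, ribosomal RNA genes left out, a replicate block and each library left out.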

Additional observations from a re-analysis of the deposited data

How the results depend on the processing

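With edgeR, 0 members were called under each adjusted alternative, with each library left out and with the replicate block (8 members tested under the stricter filter, otherwise 9), and 1 had an unadjusted p below 0.05. DESeq2 and limma-voom on all 6 libraries also called 0, whereas DESeq2 without in vivo replicate 3 called 1, Tcf7l1. Pathway genes called numbered 0 by edgeR, 1 without a filter on low counts (Dkk1), 2 by DESeq2 and 11 at an unadjusted p below 0.05. With DESeq2 and a library left out, 1 to 5 pathway genes were called. Over all genes the count was 0 by edgeR, 3 with its newer form (chosen after seeing the data), 102 by limma-voom, 391 without a filter, 459 by DESeq2 and 1458 at an unadjusted p below 0.05. Members whose groups did not overlap numbered 2 when libraries were scaled by totals alone, Axin1 (lower in vitro) being added to Tcf7l1. Under that scaling 11.1% of all genes tested were lower and 5.16% higher without overlap, and the median of all genes moved by −0.32. Of 603 values over 38 named genes, 595 kept their sign. The exceptions each left out 1 library. These were Gsk3b (0.064, 0.086 and 0.089 without in vivo replicate 1, in vivo replicate 2 and in vitro replicate 2), Lrp6, Sfrp1 and Dvl2 without in vitro replicate 1 (−0.0038, −0.0095 and −0.15), and Wnt3a and Lrp5 without in vivo replicate 3 (−0.0016 and 0.25). With each library left out in turn, the log2 fold change ranged from −0.36 to 0.089 for Gsk3b, −0.0038 to 0.76 for Lrp6, −0.0016 to 1.97 for Wnt3a, −0.0095 to 1.15 for Sfrp1, −0.15 to 1.36 for Dvl2 and −1.68 to 0.25 for Lrp5. The cause was not tested. The labels give same-numbered libraries nothing in common but the number. Their deviations from the group means correlated at −0.099, 0.096 and −0.044, and not every library correlated best with its own number. With 3 libraries a group, these correlations cannot show whether such libraries share a batch. With the replicate block edgeR called 0 genes, and Tcf7l1 had a log2 fold change of 2.28. Totals of 6918288 to 17643429 counts limit what can be seen of genes at 0.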

Other observations

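Some pathway transcripts were low or came mainly from 1 library. Of those named here, Kremen2 was tested and the others had too few counts. Wnt11, a ligand of the branch without beta-catenin, had 78 counts in in vitro replicate 2 and 0 to 5 in the other libraries. Wnt3, a ligand needed later for gastrulation, had 44 counts in in vitro replicate 3 and 0 to 5 elsewhere, and Wnt10b had 15 counts in in vivo replicate 1 and 0 elsewhere. Kremen2, which encodes a receptor for DKK1, had 41, 13 and 170 counts in vivo, and 67 counts in in vitro replicate 2 with 0 in the other 2 in vitro libraries (log2 fold change −1.70 ± 1.81, SE, edgeR adjusted p = 0.797). Fzd9 had 18, 11 and 12 counts in vivo, compared with 1, 0 and 0 in vitro. R-spondin genes, which encode secreted enhancers of Wnt signalling, were at 0 throughout for Rspo2 and Rspo4, whereas Rspo1 had 1, 0 and 0 counts in vivo, compared with 16, 5 and 17 in vitro. These genes were picked after their values were seen.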
